A study of Homo sapiens with 6 samples.

Results

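The 78 nuclear genes described here encode the proteins of the mitochondrial ribosome, taken by name: every gene whose symbol begins with MRPS or MRPL followed by a digit, 78 of 17513 genes listed. By symbol 29 belong to the small subunit (MRPS) and 49 to the large (MRPL). The rule used names and no measured value. RefSeq names 77 protein-coding genes in this way and all 77 are present; the remaining one, MRPS36, is now called KGD4 and its product is assigned to the oxoglutarate dehydrogenase complex, outside the mitoribosome. Of 113 further RefSeq loci with such symbols, pseudogenes for the most part, 0 are listed. MRPS30 and MRPS18A carry small subunit names, but their products sit in the large subunit in structures of the human mitoribosome.

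The mitochondrial ribosome translates the few messages of mitochondrial DNA, all of which encode subunits of the respiratory chain and ATP synthase. Its ribosomal RNAs are made inside the organelle, whereas all of its proteins are encoded in the nucleus, made on cytosolic ribosomes and imported. Many of the proteins have bacterial counterparts and many others are found only in mitochondria, so the class shares a function but no common sequence, and its messages are mostly short. Macrophages draw on glycolysis and on oxidative phosphorylation to differing degrees as they change state.

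Polyadenylated RNA was sequenced in 6 libraries, 3 per group. By the series description the cells were THP1-derived macrophages (THP1 is a monocytic leukemia line of human origin), cultured over 48 h with medium taken from KYSE150, an esophageal squamous carcinoma line, also human. In the group called shNC medium the KYSE150 cells carried the control hairpin shNC, and in the group called shSPP1#2 medium they carried shSPP1#2, a hairpin named for SPP1, the gene of the secreted protein osteopontin. The hairpin was thus in the cells that conditioned the medium, and shSPP1#2 is the only SPP1 hairpin among these libraries.

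The sample labels name KYSE150 itself as the source, so markers were read first. All 13 macrophage markers reached 1 FPKM (fragments divided by gene length and by library size) in every library, with a list median of 181 to 191 FPKM, and their sum lay between 2699 and 2901 FPKM in shNC medium and between 2635 and 2708 FPKM in shSPP1#2 medium. Of 12 squamous epithelial markers 0 reached 1 FPKM in every library, and their sum stayed between 0.7 and 1.2 FPKM. Fibroblast (2 of 6) and endothelial (1 of 4) markers reached 1 FPKM in part, with sums of 20.9 to 23.9 and 132.8 to 143.2 FPKM over all libraries, and the 1 of 5 T cell markers listed did not. SPP1 of the receiving cells measured 1890.4 to 2075 FPKM over the 6 libraries. A library held 18113591 (shNC replicate 2) to 20626346 (shNC replicate 3) estimated counts. Libraries of a group were not copies of each other, since chi-square per degree of freedom between them was 3.20 to 4.33. Replicate 2 of shNC had the fewest counts and the highest score on the first principal component, 10.07 against -7.58 to 6.62 for the others. Whether replicates were separate cultures is not stated, and p-values therefore speak only of the spread between these libraries, which may be technical.

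Every member was expressed, and the order of the levels was nearly the same in both media. All 78 passed the low-count filter, with 55.0 to 3525 estimated counts per gene and library. On the FPKM scale, which divides by length and so allows genes to be compared, the mean over the 6 libraries ran from 1.78 for MRPS33 to 189 for MRPS6, a 106-fold range. Of the 78, 57 lay above 10 FPKM, 8 above 50 FPKM and 8 below 5 FPKM. Ranked by mean FPKM, the levels in shNC and in shSPP1#2 medium had a Spearman correlation of 0.996 across the 78 genes, a description over genes that share their libraries. Messages for proteins of one particle thus stood at widely different levels. The median level was 27.3 FPKM for large subunit genes and 16.2 FPKM for small subunit genes. The plot of levels by library shows both subunits in order.

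**Figure D1:**
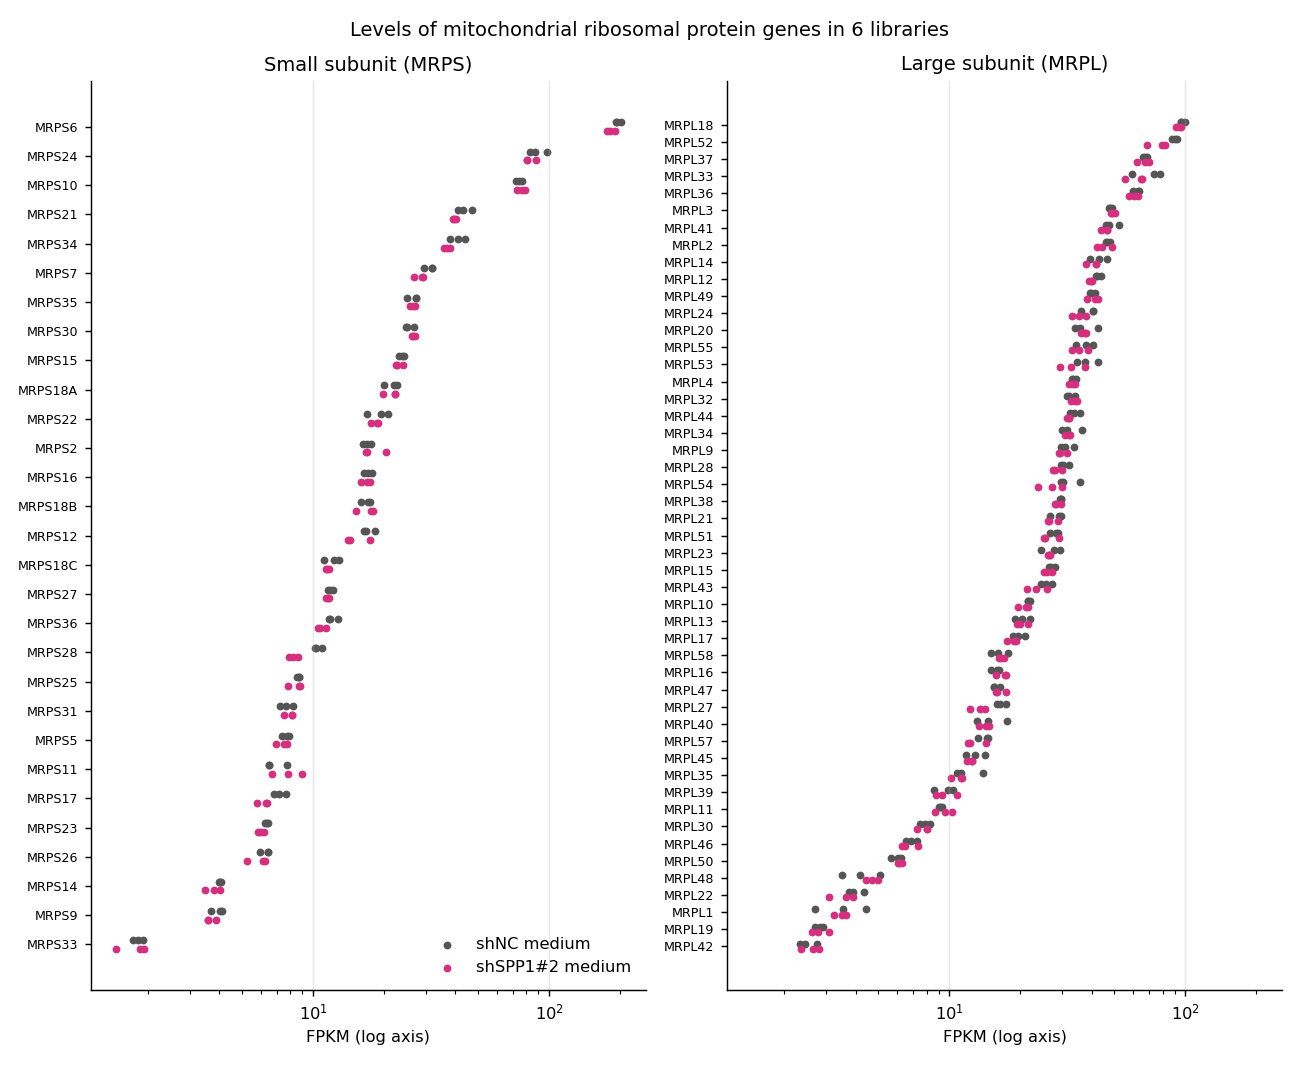
FPKM (log axis) of each of the 78 genes in each of the 6 libraries, small subunit genes on the left and large subunit genes on the right, ordered by mean level; grey points are the 3 shNC libraries and pink points the 3 shSPP1#2 libraries. Levels run from 1.78 FPKM for MRPS33 to 189 FPKM for MRPS6, and for most genes the libraries of both groups lie close together.

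Among small subunit genes the highest was MRPS6, a protein of the subunit's platform. In shNC replicates 1, 2 and 3 it measured 192, 201 and 194 FPKM, against 176, 181 and 190 FPKM with shSPP1#2. Exons of SLC5A3, an inositol transporter gene read from the same strand, cover 273 exonic bases of MRPS6 (6.4%), so part of its count is uncertain. MRPS24, a protein at the entrance of the messenger channel, followed with 82.6 to 97.6 FPKM in shNC medium and 80.6 to 88.4 FPKM in shSPP1#2 medium. It too is uncertain, since the readthrough gene URGCP-MRPS24 shares 606 of its exonic bases. MRPS10, a head protein, measured 77.0, 74.8 and 72.5 FPKM in shNC and 78.8, 73.2 and 77.2 FPKM in shSPP1#2 medium, ranges that overlap. MRPS21 measured 41.3 to 47.3 FPKM and 39.3 to 40.4 FPKM. At the low end were MRPS9, with 3.71 to 4.11 FPKM in shNC and 3.59 to 3.89 FPKM in shSPP1#2 medium, and the head protein gene MRPS33, with 1.73 to 1.91 and 1.46 to 1.93 FPKM. Replicate 2 was the lowest shSPP1#2 library for MRPS33.

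Large subunit genes were led by MRPL18, a protein of the central protuberance, the lobe at the top of the subunit. It measured 99.8, 95.8 and 95.6 FPKM in shNC and 95.8, 91.3 and 95.1 FPKM in shSPP1#2 medium. MRPL52, in the same lobe, came second with 68.8 to 92.1 FPKM over all libraries. Next were MRPL37, a protein without bacterial counterpart, with 62.4 to 69.9 FPKM, and MRPL33, a small rRNA-binding protein, with 55.7 to 78.1 FPKM. The lowest large subunit genes were MRPL19 (2.61 to 3.08 FPKM) and MRPL42 (2.33 to 2.81 FPKM). Both have long messages by the deposited values: the length implied by dividing counts by FPKM and library total was 7777 bases for MRPL19 and 15502 bases for MRPL42, against a median of 1115 bases for the large subunit. These lengths are uncertain. In GENCODE v29 all exons of MRPL19 together cover 4601 bases, fewer than implied, and those of MRPL42 cover 16393 bases. The median transcript there is 720 bases for MRPL19 and 847.5 bases for MRPL42. MRPL42 gathered 654 to 887 counts per library, so its low FPKM reflects division by the implied 15502 bases and not a low count. For MRPS33, the lowest member by FPKM, the implied length was 4183 bases, against a median of 1425 bases for the small subunit. It gathered 124 to 164 counts per library, so its place at the bottom of the FPKM range also depends on that length.

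Between the media the members differed by little, and none passed the test. The edgeR quasi-likelihood test with Benjamini-Hochberg adjustment over 13555 genes called 0 members and 0 genes in all (0%) at an adjusted p below 0.05, the smallest adjusted p of any gene being 0.0655. DESeq2 called 13 genes and 0 members, but its filter left most of the named members without an adjusted p, so those could not be called. At an unadjusted edgeR p under 0.05 there were 9 members, all lower in shSPP1#2 medium (11.5% of 78), beside 6.85% of all genes in either direction and 3.39% lower. On the CPM scale (counts relative to the TMM-scaled library total), the groups did not overlap for 13 members. Of these, 12 (15.4%) were lower in shSPP1#2 medium, beside 5.50% of all genes, and 1, MRPL3, was higher; in either direction the share of all genes was 11.1%. The median standard error of a member's log2 fold change was 0.074. For 76 members both ends of the 95% interval were less than 0.5 from 0, the others being MRPS28 and MRPL27, so larger differences are outside the intervals for most of the class. In bulk RNA, fewer cells of a type and less RNA per cell cannot be told apart.

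**Figure D2:**
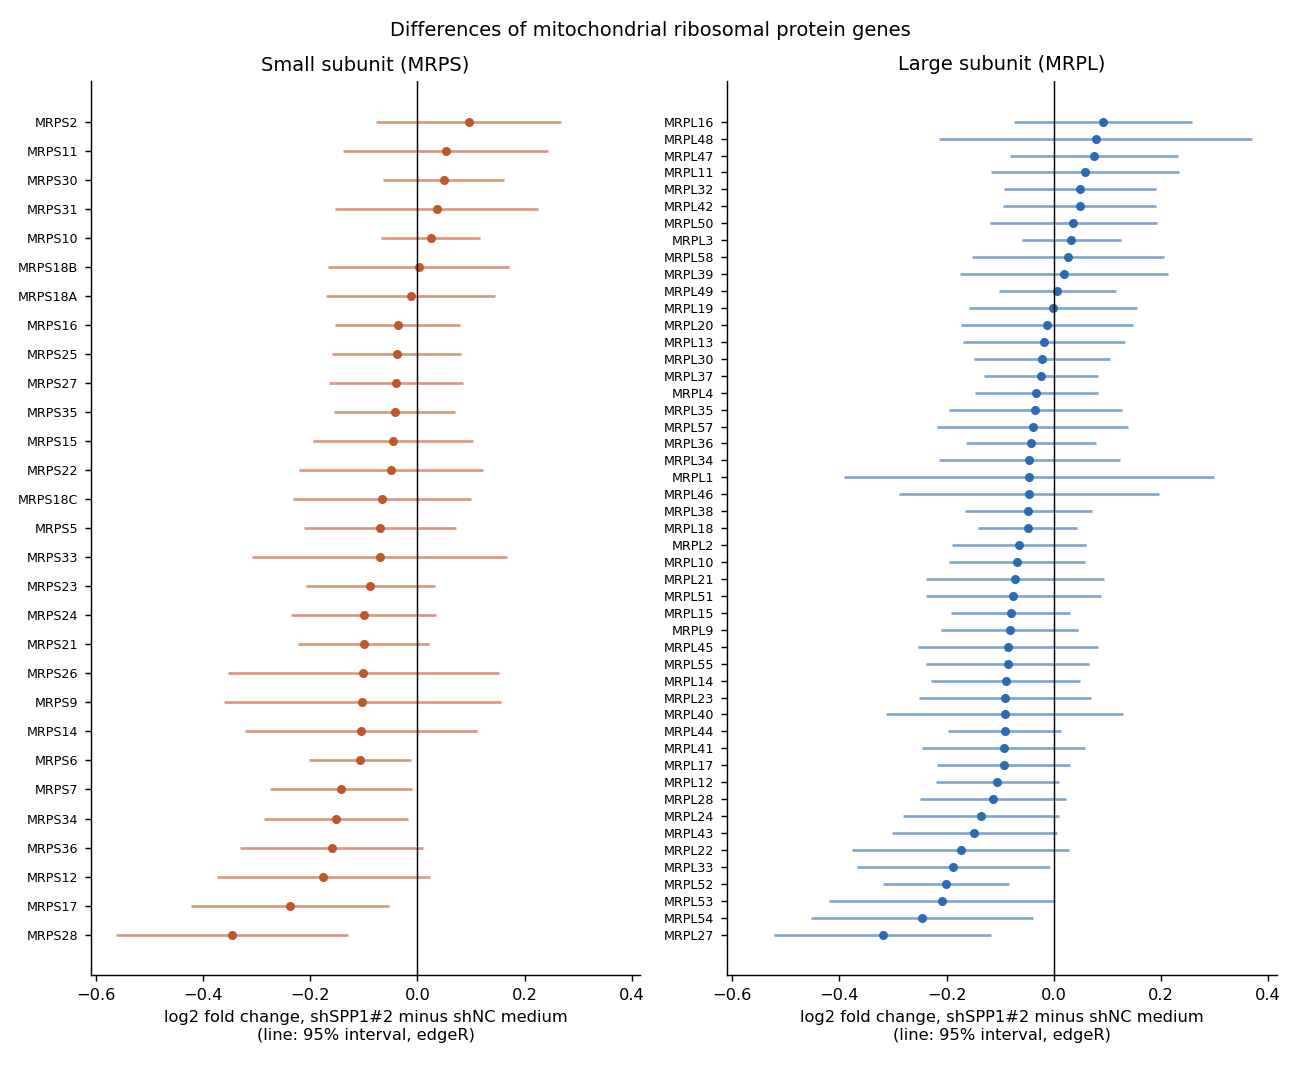
Log2 fold change, shSPP1#2 minus shNC medium, of the 78 genes with its 95% interval from the edgeR fit (lines), small subunit on the left and large subunit on the right, ordered by value. Points run from -0.35 (MRPS28) to 0.096 (MRPS2), 61 lie left of 0, and 9 intervals lie wholly below 0.

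MRPL52 had the smallest p of the class. The gene (Entrez 122704) is on chromosome 14, plus strand, from 22829879 to 22835037 (GENCODE v29, GRCh38), and no exon of another protein-coding gene overlaps it. Its levels were 92.1, 90.5 and 88.1 FPKM with shNC medium (replicates 1, 2 and 3) against 81.6, 68.8 and 79.8 FPKM with shSPP1#2 medium. All 3 shSPP1#2 libraries lay below all 3 shNC libraries, and replicate 2 was the lowest. Means were 90.2 ± 2.00 and 76.7 ± 6.92 FPKM (SD, n = 3 each). The log2 fold change was -0.20 with a 95% interval from -0.32 to -0.083 (edgeR adjusted p = 0.483), and -0.14 without shSPP1#2 replicate 2.

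MRPS28 and MRPL27 had the most negative log2 fold changes of their subunits. MRPS28, a small subunit protein, is encoded on the minus strand of chromosome 8, where 650 of its exonic bases (35.8%) are shared with the annotated gene AC036214.3. It measured 10.3, 10.9 and 10.2 FPKM in shNC and 7.94, 8.18 and 8.62 FPKM in shSPP1#2 medium, from 129 to 167 counts per library. The groups did not overlap (10.5 ± 0.367 and 8.25 ± 0.345 FPKM, SD, n = 3 each; log2 fold change -0.35, standard error 0.10, edgeR adjusted p = 0.486). MRPL27, on the minus strand of chromosome 17 (50367857 to 50373214), is the counterpart of a bacterial protein that reaches toward the peptidyl transferase center. It measured 17.3, 16.5 and 15.9 FPKM in shNC and 14.2, 13.5 and 12.3 FPKM in shSPP1#2 medium. Its groups did not overlap either (16.6 ± 0.716 and 13.3 ± 0.985 FPKM, SD, n = 3 each; log2 fold change -0.32, standard error 0.097, edgeR adjusted p = 0.486). Both rest on low counts for this class: MRPL27 gathered 159 to 226 per library. Leaving out single libraries moved MRPS28 between -0.37 and -0.31 and MRPL27 between -0.37 and -0.25.

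The remaining small subunit genes of smallest p were MRPS17, MRPS6, MRPS34 and MRPS7. MRPS17, an rRNA-binding protein of the subunit's body, measured 7.69, 7.20 and 6.80 FPKM in shNC and 6.35, 5.77 and 6.34 FPKM in shSPP1#2 medium. These groups did not overlap, and the log2 fold change was -0.24 (95% interval -0.42 to -0.053, edgeR adjusted p = 0.619). It has 4 named pseudogenes in GENCODE and shares 471 exonic bases with AC092647.5. MRPS6, whose levels are given above, also had groups that did not overlap, at a smaller difference of -0.11 (-0.20 to -0.013, edgeR adjusted p = 0.673). MRPS34, a mitochondria-specific protein at the foot of the subunit, measured 41.2, 44.0 and 37.9 FPKM against 38.0, 37.1 and 36.0 FPKM. There shNC replicate 3 lay below shSPP1#2 replicate 1, and the log2 fold change of -0.15 had an interval from -0.29 to -0.017 (edgeR adjusted p = 0.673) and became -0.094 without shNC replicate 2. MRPS7, a head protein near the decoding site, measured 31.9, 32.0 and 29.4 FPKM against 26.8, 29.3 and 28.8 FPKM. Its groups were apart in FPKM by 29.4 against 29.3 but overlapped in TMM-scaled CPM (log2 fold change -0.14, edgeR adjusted p = 0.691).

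On the large subunit side MRPL54, MRPL33 and MRPL53 followed, with implied lengths of 559, 426 and 447 bases. MRPL54, a mitochondria-specific protein, measured 30.4, 35.8 and 29.6 FPKM in shNC and 30, 27.3 and 23.7 FPKM in shSPP1#2 medium. The groups overlapped, shNC replicate 2 was the highest and shSPP1#2 replicate 3 the lowest. Its log2 fold change of -0.25 (-0.45 to -0.039, edgeR adjusted p = 0.633) became -0.15 without either of those libraries. MRPL33 measured 78.1, 73.5 and 59.4 FPKM against 65.2, 55.7 and 64.7 FPKM, with overlap through shNC replicate 3. Its log2 fold change was -0.19 (-0.37 to -0.0075, edgeR adjusted p = 0.710), -0.12 without shNC replicate 1 or shSPP1#2 replicate 2 and -0.29 without shNC replicate 3. BABAM2 shares 324 of its exonic bases. MRPL53, also mitochondria-specific, measured 37.6, 42.5 and 34.9 FPKM against 32.8, 37.6 and 29.3 FPKM. The groups overlapped here as well, and the interval of -0.42 to 0.0030 around -0.21 included 0 (edgeR adjusted p = 0.732). It was -0.12 without shNC replicate 2 or shSPP1#2 replicate 3 and -0.31 without shSPP1#2 replicate 2. Exons of CCDC142 on the same strand cover 608 of the 1344 exonic bases that MRPL53 has over all its transcripts (45.2%).

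**Figure D3:**
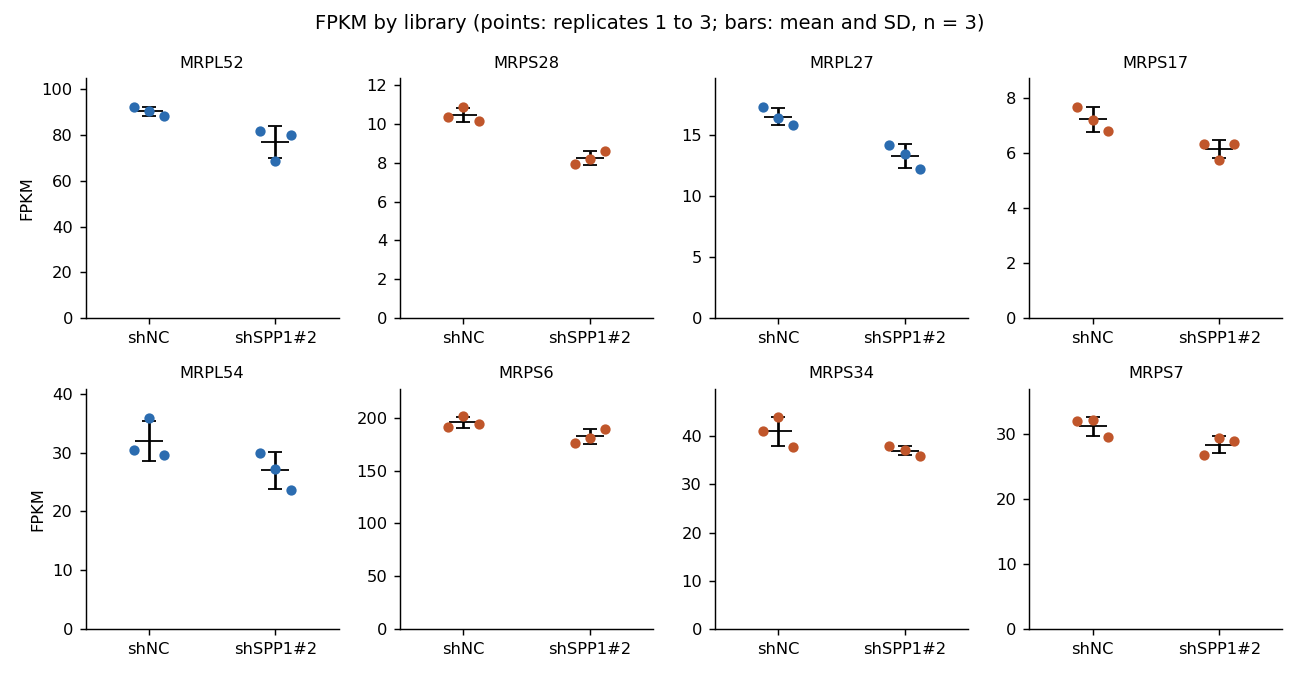
FPKM of 8 of the 9 members with an unadjusted p under 0.05, by medium; points are replicates 1 to 3 from left to right, bars the mean and SD (n = 3), small subunit genes in orange and large subunit genes in blue. The groups are apart in FPKM for MRPL52, MRPS28, MRPL27, MRPS17, MRPS6 and MRPS7 and overlap for MRPL54 and MRPS34.

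The stalk, the flexible arm that recruits elongation factors, is built from MRPL12 on a base of MRPL10 and MRPL11. MRPL12, which was also described as a partner of mitochondrial RNA polymerase, measured 43.9, 42.1 and 41.7 FPKM in shNC and 39.7, 40.3 and 39.1 FPKM in shSPP1#2 medium. All shNC values lay above all shSPP1#2 values, at a log2 fold change of -0.11 (-0.22 to 0.0094, edgeR adjusted p = 0.760), and 68.2% of its exonic bases are shared with AC139530.2. MRPL10 measured -0.069 (-0.19 to 0.058, edgeR adjusted p = 0.893), with groups apart in CPM and overlapping in FPKM. MRPL11 went the other way, at 0.058 (-0.12 to 0.23).

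Sorted by place in the ribosome, every region held more genes below 0 than above, and medians lay close together. The 7 genes of the small subunit head and decoding site had a median log2 fold change of -0.070 with 5 lower, the 5 platform genes one of -0.067 with 3 lower, and the other 14 small subunit genes one of -0.079 with 13 lower. In the large subunit the 8 central protuberance genes had a median of -0.048 with 6 lower. The 8 genes around the tunnel exit, where new chains leave toward the inner membrane, had one of -0.091 with 6 lower, and the 32 other genes one of -0.041 with 25 lower. Genes of one region did not all lie on one side: in the central protuberance MRPL27 measured -0.32, MRPL52 -0.20 and MRPL48 0.078 (-0.21 to 0.37). The 3 paralogs of one bacterial protein also differed little from 0. MRPS18A, which sits in the large subunit, measured -0.013 (-0.17 to 0.15), MRPS18B 0.0021 (-0.17 to 0.17) and MRPS18C -0.067 (-0.23 to 0.10). The most positive members were MRPS2 at 0.096 (-0.077 to 0.27) and MRPL16 at 0.092 (-0.074 to 0.26), both overlapping between groups; MRPS2 measured 16.3 to 17.7 FPKM in shNC medium and 16.7 to 20.4 FPKM in shSPP1#2 medium. MRPL3, the 1 member higher without overlap in CPM, measured 47.4 to 48.7 and 48.5 to 50.4 FPKM, ranges that overlap on that scale, with a log2 fold change of 0.033 (-0.059 to 0.12).

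Small and large subunit genes lay on the same side of 0 by a similar amount. Of the small subunit genes 23 of 29 were lower in shSPP1#2 medium (median log2 fold change -0.070), and of the large subunit genes 38 of 49 (median -0.049). For all 78 members 61 were lower (78.2%) and the median was -0.066, a ratio close to 1, beside 50.1% and -0.0003 for all 13555 genes. The middle part of the members, between the quartiles, ran from -0.10 to -0.014. The difference of the subunit medians was -0.022, and -0.023 with MRPS30 and MRPS18A counted with the large subunit and MRPS36 left out. Without shSPP1#2 replicate 2 it was 0.0017, and on log2(FPKM + 1) it was 0.010, so the order of the subunits was not stable.

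Taken by library, the lower values were not shared by all libraries of a group. For each gene the mean log2 CPM over the 6 libraries was subtracted and the median taken over the class. The small subunit median was 0.034, 0.071 and -0.0092 in shNC replicates 1, 2 and 3, against -0.039, -0.0012 and -0.064 with shSPP1#2. That of the large subunit was 0.037, 0.055 and -0.0027 in shNC, and -0.027, -0.0018 and -0.037 in shSPP1#2 medium. Replicate 3 of shNC lay below replicate 2 of shSPP1#2 in both subunits, so the groups overlapped. Of the 78 genes, 28 had their highest CPM in shNC replicate 2 and 23 in shNC replicate 1, while 27 had their lowest in shSPP1#2 replicate 3. Without shNC replicate 2 the median of all members was -0.043, and without shNC replicate 3 it was -0.078.

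**Figure D4:**
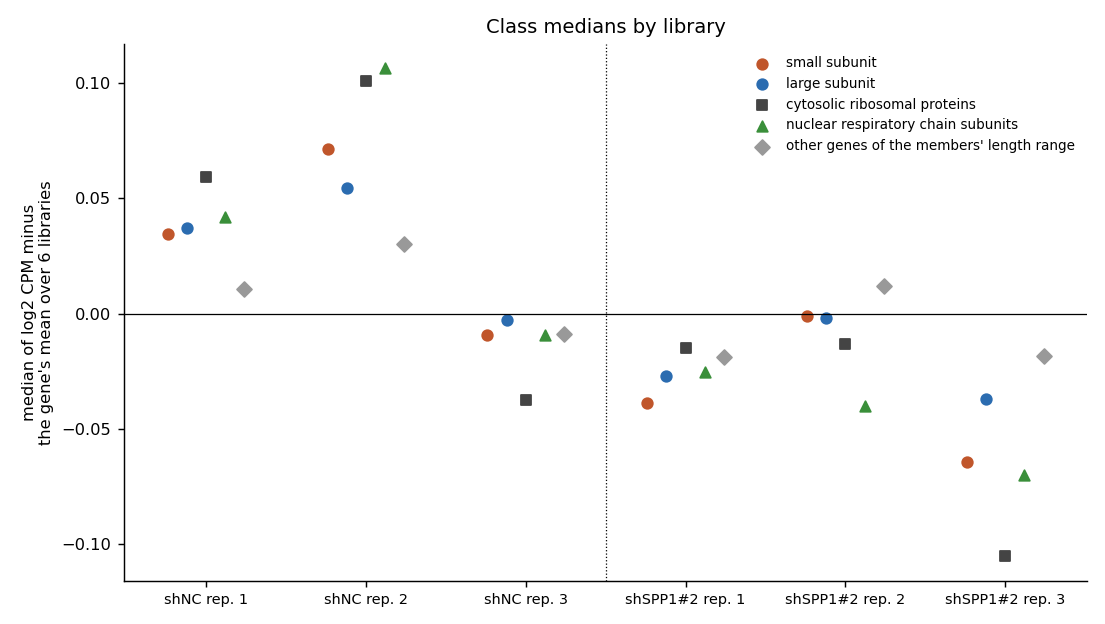
Median of log2 CPM minus each gene's mean over the 6 libraries, by library, for the small and large subunit genes, cytosolic ribosomal protein genes, nuclear respiratory chain genes and other genes within the members' central length range; the dotted line parts the media. The other genes were longer, at a median implied length of 2035 bases against 1195 bases for the members. ATP synthase genes are part of the respiratory class. Every class is highest in shNC replicate 2, and shNC replicate 3 lies among or near the shSPP1#2 libraries.

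Summed over the class, the members took 2575, 2575 and 2487 CPM in shNC replicates 1, 2 and 3, against 2462, 2455 and 2453 CPM with shSPP1#2. Unlike the CPM values above, these sums are relative to the unscaled library total, without TMM scaling. On that scale the 3 shNC sums lay above the 3 shSPP1#2 sums, with means of 2546 ± 50.7 and 2457 ± 4.5 CPM (SD, n = 3 each). Sums of TMM-scaled CPM were not taken, so the gap and the small SD are shown for the unscaled totals, and their size after scaling is not given. The sum is led by the abundant genes, whereas the median above weighs each gene alike and uses TMM-scaled CPM. By subunit the means were 1006 ± 24.3 and 969.8 ± 3.9 CPM for the small and 1540 ± 27.8 and 1487 ± 8.1 CPM for the large subunit (SD, n = 3 each).

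Cytosolic ribosomal protein genes and nuclear respiratory chain genes, also short and abundant, lay in the same direction. The respiratory class was taken by symbol and also holds ATP synthase genes. Of 86 tested cytosolic ribosomal genes 83 were lower, with a median of -0.082, and of 83 respiratory genes 73, with a median of -0.089. Their levels were higher than those of the mitoribosome, at a median of 493 and 51.7 FPKM against 20.7 FPKM, and their implied lengths shorter, at a median of 734 and 755 bases against 1195 bases. In the cytosolic class, too, shNC replicate 2 was highest (0.10) and shNC replicate 3 (-0.037) lay below shSPP1#2 replicates 1 and 2 (-0.015 and -0.013). In the respiratory class the 3 shNC medians (0.042, 0.11 and -0.0094) lay above the 3 shSPP1#2 medians (-0.025, -0.040 and -0.070). None of these 3 classes had a called gene. At an unadjusted edgeR p under 0.05, 36% of the tested cytosolic and 26.5% of the tested respiratory genes were lower, beside 11.5% of the members. Groups lay apart in CPM, lower in shSPP1#2 medium, for 12.8% and 22.9% of them, beside 15.4% of the members. These shares above those of all genes were thus not particular to the mitoribosome.

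Length moved with the difference, within the class and outside it. Among members of 500 to 1000 bases 25 of 27 were lower with a median of -0.092, among those of 1000 to 1500 bases 16 of 24 with a median of -0.036, and among the 3 above 5000 bases 2 with a median of -0.0016. The 6 members from 3000 to 5000 bases, 5 of them lower, had a median of -0.054, so the members' medians did not climb steadily, and the longer classes hold few of them. For all other tested genes the medians climbed with length. They were -0.12 below 500 bases (84.4% lower), -0.062 from 500 to 1000 bases (74.4%), -0.038 from 1000 to 1500 bases (67.3%) and 0.035 above 5000 bases (33.1%). Among 6562 other genes between 650 and 3172 bases, a range that holds the central part of the members, 59.4% were lower, with a median of -0.020. That set shares the range but not the spread of lengths. Its median implied length was 2035 bases, against 1195 bases for the members. Across the 78 members the Spearman correlation of the log2 fold change was 0.387 with length, -0.315 with GC content and -0.183 with FPKM, as descriptions over genes that share their libraries. With each library's trend over length removed from the edgeR fit, the member median was -0.022, with 49 of 78 lower; it was -0.045 for the small and -0.012 for the large subunit. The same fit gave MRPS28 -0.28, MRPL27 -0.24, MRPS17 -0.21 and MRPS7 -0.098. Among the members named above with a log2 fold change of -0.10 or lower, those it moved by over 1.5 times were MRPL54 (-0.15), MRPL52 (-0.12), MRPL53 (-0.099), MRPS34 (-0.094), MRPL33 (-0.074), MRPS9 (-0.068), MRPS21 (-0.059), MRPL12 (-0.050), MRPS6 (-0.045) and MRPS24 (-0.013), from values given above or, for MRPS9, MRPS21 and MRPS24, from -0.10. Again 0 members were called.

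**Figure D5:**
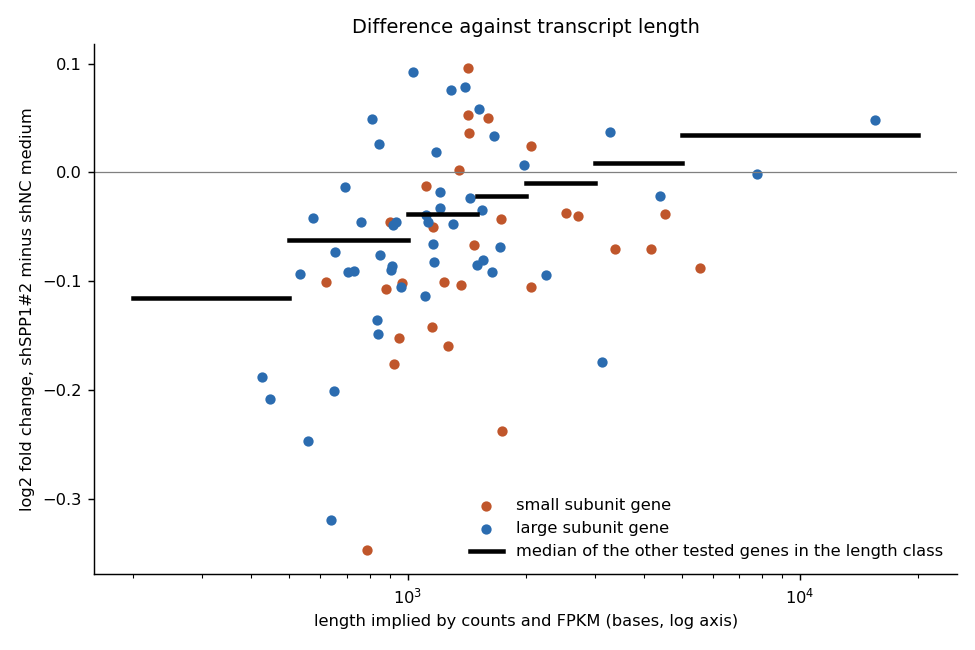
Log2 fold change, shSPP1#2 minus shNC medium, of the 78 genes against the transcript length implied by counts and FPKM (bases, log axis); orange points are small and blue points large subunit genes, and each black bar is the median of all other tested genes in that length class. The bars climb from -0.12 for genes under 500 bases to 0.035 for genes over 5000 bases, and members lie on both sides of them.

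Proteins of the mitoribosome that the symbol rule leaves out were read from a list of 5. Their median log2 fold change was -0.054 and 0 were called. For DAP3 and CHCHD1 (-0.0023), both near 0 and below it in the edgeR fit, mean FPKM was higher in shSPP1#2 medium (87.8 against 89.0 and 21.20 against 21.24 FPKM). DAP3, a GTP-binding protein of the small subunit head and the most abundant of them, measured 93.8, 83.0 and 86.6 FPKM in shNC and 89.7, 89.8 and 87.4 FPKM in shSPP1#2 medium, a log2 fold change of -0.0011. GADD45GIP1, a large subunit protein, measured -0.11 (-0.28 to 0.049, edgeR adjusted p = 0.845), -0.064 without shNC replicate 2 and -0.046 without shSPP1#2 replicate 1. PTCD3, an RNA-binding protein of the small subunit, measured -0.071 (-0.20 to 0.062).

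Factors that build and run the mitoribosome also had no call. Of 28 assembly and rRNA modification genes 21 were lower, with a median of -0.040. METTL17, a small subunit assembly factor, measured 17.0, 15.1 and 16.9 FPKM in shNC and 15.0, 14.4 and 14.6 FPKM in shSPP1#2 medium, and its groups did not overlap (log2 fold change -0.16, -0.30 to -0.0083, edgeR adjusted p = 0.706). TRUB2, a pseudouridine synthase, measured -0.11 (edgeR adjusted p = 0.714). Of 17 translation factors 12 were lower, with a median of -0.033, but the one of smallest p was higher. MTIF2, which brings the initiator transfer RNA to the small subunit, measured 14.0, 12.7 and 12.5 FPKM in shNC and 14.6, 14.3 and 14.6 FPKM in shSPP1#2 medium. The 3 shSPP1#2 values lay above the 3 shNC values (log2 fold change 0.17, 0.042 to 0.30, edgeR adjusted p = 0.605). MTFMT, which formylates that initiator, measured -0.14 (-0.29 to 0.021), and -0.080 without shSPP1#2 replicate 2.

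Genes of mitochondrial transcription and DNA maintenance were spread around 0, with 6 of 13 lower and a median of 0.0035. ELAC2, which trims transfer RNA ends, measured -0.20 (-0.39 to -0.0084, edgeR adjusted p = 0.709; -0.12 without shNC replicate 2) and the RNA-degrading enzyme PNPT1 -0.076 (-0.22 to 0.067). Of 9 tested regulators of mitochondrial biogenesis 6 were lower, with a median of -0.0021. NRF1 and GABPA, transcription factors known for binding promoters of nuclear genes of mitochondria, measured 0.10 (-0.072 to 0.27) and 0.070 (-0.054 to 0.19). NRF1 stood at 3.88 to 4.16 FPKM in shNC and 4.12 to 4.56 FPKM in shSPP1#2 medium, and GABPA at 7.78 to 9.11 and 8.64 to 9.90 FPKM, with overlap in both.

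The promoters of the members were searched for core letters of 3 factors on both strands, in RefSeq windows (GRCh38.p14) of 250 bases before to 50 bases after the start, which 70 of the 78 members had. CCGGAAG, the core bound by ETS factors such as GABPA, was in 29 of the 70 windows (41.4%), in 10.7% of all 27305 windows and in 15.7% of those of 13857 listed protein genes. ATGGCGG, a core of YY1, was in 24 windows (34.3%), against 5.7% and 8.4%; in 20 of the 24 it lay after the start, and its first letters are also those with which a coding sequence begins. GCATGCG, a core of NRF1, was in 7 windows (10%), against 4.1% and 5.5%. Small and large subunit genes had the ETS letters at similar shares, 42.9% and 40.5%. A match is a description of letters and does not show binding, and the members were not compared with genes of the same promoter GC content, the median of which was 60.3% for members and 58.3% for all windows.

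Of 29 members with the ETS letters, 22 had them beginning within the 100 bases before the start. The upstream part of 4 such promoters is printed for that reason, each 250 bases up to the start, 5′ to 3′ on the gene's strand, with CCGGAAG or its reverse complement in capitals. MRPL33 (chr2:27771469-27771718, plus strand) has it beginning at -8, counted from the start with -1 as the last base before it. MRPL54 (chr19:3762432-3762681, plus strand) has it at -21 as the reverse complement. MRPS10 (chr6:42217862-42218111, minus strand) has it at -22, and MRPS18A (chr6:43687792-43688041, minus strand) at -31. MRPL33 and MRPL54 had log2 fold changes of -0.19 and -0.25, and MRPS10 and MRPS18A of 0.025 and -0.013. Of these 4 only MRPS10 lay above 0, with an interval (-0.068 to 0.12) that included 0. The 4 are a selection, and whether the differences of all 22 go with these letters was not tested.
MRPL33: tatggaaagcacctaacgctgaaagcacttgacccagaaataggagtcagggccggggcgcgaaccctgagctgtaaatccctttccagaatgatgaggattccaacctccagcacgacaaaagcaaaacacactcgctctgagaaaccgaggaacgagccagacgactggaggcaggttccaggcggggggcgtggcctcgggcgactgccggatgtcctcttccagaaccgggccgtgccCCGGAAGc
MRPL54: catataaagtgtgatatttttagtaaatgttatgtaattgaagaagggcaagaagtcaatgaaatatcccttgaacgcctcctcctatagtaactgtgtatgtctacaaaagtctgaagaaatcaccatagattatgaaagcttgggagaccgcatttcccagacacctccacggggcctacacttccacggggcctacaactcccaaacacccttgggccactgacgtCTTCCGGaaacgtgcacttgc
MRPS10: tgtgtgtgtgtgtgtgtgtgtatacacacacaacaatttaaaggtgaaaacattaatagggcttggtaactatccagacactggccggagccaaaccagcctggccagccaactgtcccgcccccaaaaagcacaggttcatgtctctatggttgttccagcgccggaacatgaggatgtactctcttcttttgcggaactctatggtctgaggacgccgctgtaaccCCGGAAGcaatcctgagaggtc
MRPS18A: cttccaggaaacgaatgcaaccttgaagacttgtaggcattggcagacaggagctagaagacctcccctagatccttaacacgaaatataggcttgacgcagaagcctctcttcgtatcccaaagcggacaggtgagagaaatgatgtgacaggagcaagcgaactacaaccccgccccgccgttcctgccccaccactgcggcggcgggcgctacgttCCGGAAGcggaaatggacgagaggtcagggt

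Several members share their promoter region with a gene read the other way. For 17 of 78 (21.8%) the start of another protein-coding gene on the opposite strand lay within 1000 bases upstream, against 1395 of 17238 listed protein genes (8.1%). MRPL46 and MRPS11 face each other 34 bases apart and measured -0.046 (-0.29 to 0.20) and 0.053 (-0.14 to 0.24). MRPL36 and MRPL47 are paired with respiratory complex I genes, NDUFS6 at 34 bases and NDUFB5 at 36 bases. NDUFS6 measured -0.095 beside -0.042 for MRPL36, and NDUFB5 0.0019 beside 0.076 for MRPL47. MRPL18 faces TCP1, a subunit of the cytosolic chaperonin, at 63 bases; TCP1 stood at 236 to 253 FPKM and measured -0.038 beside -0.049 for MRPL18. Of the 3 members of smallest p, MRPL52 and MRPL27 had such a partner, and the difference between member and partner was not tested. SLC7A7, an amino acid transporter whose start is 59 bases from that of MRPL52, measured 0.058 (-0.045 to 0.16) beside -0.20 for MRPL52. EME1, 6 bases from MRPL27, stood at 0.62 to 0.90 FPKM and measured -0.036, with an interval (-0.49 to 0.42) that holds the -0.32 of MRPL27.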

How the data were processed

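Polyadenylated RNA of 6 libraries (TRIzol, DNBSEQ, per the labels' protocols) was grouped by the hairpin in the sample titles. The authors deposited estimated counts and FPKM values for 17513 genes. The submitters' processing notes name HISAT2 2.0.4, Bowtie2 2.2.5, RSEM and GRCh38.p13, with no role or order; strand use, annotation and filters are, in the sources used here, not given. Estimated counts divide reads between similar or overlapping transcripts: 73.7% of the deposited member values were not whole (tolerance 0.05), against 66.7% of all. In GENCODE v29, 34 members have named pseudogenes and 34 share exonic bases with another protein-coding gene, 12 of them over 20% of their exonic bases. These shares are taken over the exons of all transcripts, so the shared part of the counted message can differ. For MRPS24 the 606 shared bases stand beside an implied length of 618 bases.

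Counts were rounded, 13555 genes passed filterByExpr, and after TMM scaling the shSPP1#2 minus shNC contrast was fitted in R 4.3.3 by quasi-likelihood in edgeR 4.0.16, with Benjamini-Hochberg adjustment over all tested genes. The biological coefficient of variation was 4.54%. Implied length is counts divided by FPKM and the library total, and had a Spearman correlation of 0.848 with the longest GENCODE transcript over 14166 genes. With the median length of a gene's GENCODE transcripts the correlation was only 0.284. Named genes were, per subunit, the 5 of smallest p, the 4 highest and 2 lowest by mean FPKM, then the MRPS18 paralogs, MRPL12 and MRPL10, and the 2 of smallest p per gene list; other names were chosen after their values were seen. Members and lists were chosen with earlier results of these data known. Alternatives were other scalings, filters, tools (DESeq2 1.42.0, limma 3.58.1), a replicate block, removal of the trend over length (and, chosen after seeing the data, over length and GC with mgcv 1.9.3) and single libraries left out. Figures were drawn with matplotlib 3.10.9.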

Additional observations from a re-analysis of the deposited data

How the results depend on the processing

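No member was called in any of the 17 fits, and 41 members were lower and 7 higher in every one, while 30 changed sign; the limit on a single member is its interval, and members of low count, MRPS28 among them, have the wider ones. Over all genes the count of calls was 0 in the edgeR fit as reported, 18 with no low-count filter, 13 with DESeq2 (whose filter left most of the named members without an adjusted p), 1 with limma on log2(FPKM + 0.1), 2 with the length and GC trend removed and 1 to 10 with single libraries left out. With the replicate number as a block (replicate block) 59 genes and 0 members were called. The edgeR adjusted p of MRPL52, MRPL27 and MRPS28 was then 0.119, 0.173 and 0.194, against 0.483, 0.486 and 0.486 without the block. Same-numbered libraries had correlations of deviations of 0.194, 0.286 and 0.089, each the highest for its shNC replicate. Among shSPP1#2 libraries, however, replicate 3 correlated best with shNC replicate 1 (0.117). Whether same-numbered libraries were paired was not tested. The large subunit median was -0.0122 after removal of the length trend and -0.0115 after that of length and GC, and that of all members -0.0223 and -0.0251. The small minus large difference was 0.0102 on log2(FPKM + 1), -0.0353 after removal of the length and GC trend, and -0.0287 to 0.0017 with single libraries left out. Members near 0 changed sign: MRPS18B to -0.0008 with upper-quartile scaling and with the block; MRPL19 to 0.0005 without the filter, 0.0023 on log2(FPKM + 1) and 0.0024 on log2(FPKM + 0.1); with the length trend removed MRPL18 to 0.0104, MRPL37 to 0.0088, MRPL42 to -0.0227 and MRPS18A to 0.0323, and with length and GC removed to 0.0096, 0.0128, -0.0403 and 0.0388. With single libraries left out the ranges were -0.059 to 0.0418 for MRPL19, -0.0544 to 0.0521 for MRPS18A, -0.0518 to 0.082 for MRPS18B, -0.1368 to 0.0299 for MRPS33 and -0.0586 to 0.0323 for MRPL37. The cause of these changes was not tested.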
